A study of Mus musculus with 6 samples.

Results

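Neural and Schwann-lineage transcripts were followed in cultures of mouse embryonic fibroblasts (MEFs), connective-tissue cells grown from embryos. The set is 8 named genes of the 51826 in each table, matched to their symbols by Ensembl number. They are the neuronal genes Tubb3, Stmn2, Gap43 and Dcx, the glial and Schwann-lineage genes Sox10, Ngfr and Fabp7, and the progenitor gene Nes. Messenger RNA was profiled in 6 cultures on a C57BL/6 background, all labelled with passages 2 to 5 and grown in DMEM on plastic without a coating. The groups were 3 Lztr1 +/+ cultures, numbered 10, 12 and 16 (wild-type, WT), and 3 Lztr1 +/- cultures, numbered 11, 15 and 18 (heterozygous, Het). LZTR1 is an adaptor of a CUL3 ubiquitin ligase that acts on RAS proteins. The sources used here do not describe the mutant allele or say whether each culture came from its own embryo. The p-values below therefore reflect only how far these 6 cultures spread, and that spread may be technical.

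As background, Schwann cells, sensory and autonomic neurons and melanocytes all arise from the neural crest, a migratory embryonic population. SOX10 is a transcription factor kept on in the glial and melanocyte branches, and NGFR, the low-affinity neurotrophin receptor, marks crest cells and immature Schwann cells. Neurons that leave the cell cycle switch on the class III beta-tubulin TUBB3, the microtubule regulators STMN2 and DCX and the growth-cone protein GAP43. FABP7, a brain fatty acid binding protein, is used as a marker of radial glia and Schwann cell precursors, and nestin, encoded by Nes, is an intermediate filament of neural progenitors that muscle precursors, pericytes and cultured fibroblasts can also carry.

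Every one of the 8 genes was read in every culture, at 44 to 7948 expected counts per library, and each passed the filter on low counts. Library totals ran from 11025286 to 21885101 expected counts. Lztr1 itself was at 56.7 to 64.0 TPM (a transcript level scaled for gene length and library size) in wild-type and 28.3 to 35.9 TPM in heterozygous cultures, so its level matched each label. Its log2 difference was -1.01 (SE 0.07, adjusted p of 0.00457 by edgeR). Fibroblast markers were abundant in every culture, with Col1a1 at 2297 to 3356 TPM and Pdgfrb at 91.4 to 108 TPM. Cultures 10, 12, 15 and 18 were registered together and 11 and 16 later, and the numbers form the runs 10 to 12 and 15 to 18. Neither division is called a batch in the labels, and values within the runs are given below. Y-linked genes had 2202 to 2860 counts in cultures 12, 15 and 18 and 0 to 1 in cultures 10, 11 and 16, so 1 wild-type and 2 heterozygous cultures were male.

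Tubb3 belongs to a family of similar genes, and the end of the coding sequence, the acidic tail of the tubulin protein, is one stretch where they differ in both bases and length. The last coding bases are shown here beside those of the more abundant Tubb2b and Tubb5. All come from exon 4 of the GENCODE M21 transcripts in mm10, at chr8:123421620-123421679 (plus strand) for Tubb3, chr13:34127474-34127518 (minus strand) for Tubb2b and chr17:35834985-35835026 (minus strand) for Tubb5. Each is written 5′ to 3′ without the stop codon, and capitals mark bases that differ from Tubb3 or have no partner in it in a global alignment.
Tubb3: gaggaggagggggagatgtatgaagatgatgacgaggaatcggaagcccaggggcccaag
Tubb2b: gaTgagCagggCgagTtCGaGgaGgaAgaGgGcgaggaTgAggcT
Tubb5: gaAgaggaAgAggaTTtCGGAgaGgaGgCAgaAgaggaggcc
Over the whole coding sequence 84.5% of 1335 aligned bases were identical between Tubb3 and Tubb2b, and 82.4% of 1332 between Tubb3 and Tubb5. Fabp7 and its relative Fabp5 shared 57.0% of 395 aligned bases. RSEM divides a read that fits several genes into fractions, and all 48 values of the 8 genes in the 6 libraries were whole numbers to within 0.005. Of all tested genes 74.3% were whole in all 6 libraries, so this does not set the 8 apart.

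The RefSeq promoter table (GRCm38.p6) held 5 of the 8 genes. The 120 bases before the GENCODE start of each are shown because Tubb3, Dcx and Fabp7 followed one order over the cultures, described below, and Ngfr another. Capitals mark the Sox core ACAAT on either strand and the E-box CANNTG, whose letters read the same on both strands. The places are chr8:123411304-123411423 (plus strand) for Tubb3, chrX:143933312-143933431 (minus) for Dcx, chr10:57784761-57784880 (plus) for Fabp7, chr11:95587736-95587855 (minus) for Ngfr and chr3:87970958-87971077 (plus) for Nes.
Tubb3: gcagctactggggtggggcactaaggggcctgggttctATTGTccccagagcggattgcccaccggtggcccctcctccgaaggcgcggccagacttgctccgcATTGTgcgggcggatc
Dcx: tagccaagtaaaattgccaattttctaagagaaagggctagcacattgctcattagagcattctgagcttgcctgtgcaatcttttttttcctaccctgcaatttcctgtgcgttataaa
Fabp7: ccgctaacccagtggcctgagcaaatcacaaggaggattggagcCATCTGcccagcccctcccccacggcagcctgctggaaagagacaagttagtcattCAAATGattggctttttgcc
Ngfr: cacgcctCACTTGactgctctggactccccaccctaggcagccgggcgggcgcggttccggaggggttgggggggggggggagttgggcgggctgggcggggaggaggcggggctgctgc
Nes: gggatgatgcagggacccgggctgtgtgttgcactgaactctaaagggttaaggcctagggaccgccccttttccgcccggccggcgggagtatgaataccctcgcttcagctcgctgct
Tubb3 held 2 matches to the Sox core, Fabp7 2 E-boxes and Ngfr 1 E-box, with no overlap between those motifs. The homeodomain core TAATTA was in none of the 5 stretches and TATAA, searched on both strands too, matched 2 times before Dcx, unmarked in the lines above. The 2 matches overlap in the same stretch, ttataa near its end, read once on each strand. Of 14364 promoters cut to the same 120 bases, 12.4% held the Sox core, 38.4% an E-box, 1.63% TAATTA and 10.2% TATAA. The stretch before Dcx was poor in G and C (39.2%) and that before Ngfr rich (76.7%). These matches are letters in a short window and say nothing of binding.

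The 8 genes spanned a wide range of levels. Gap43 stood highest at 140 ± 9.61 TPM (SD over the 6 cultures), above 92.6% of the 14652 genes tested. Tubb3 followed at 105 ± 27.8 TPM and Nes at 98.0 ± 10.3 TPM. Gap43 exceeded Tubb3 in 5 of 6 cultures and Tubb3 exceeded Nes in 5 of 6, so this order was not fixed. Fabp7 (43.3 ± 24.2 TPM) and Stmn2 (39.5 ± 10.03 TPM) traded places, Fabp7 being the higher in 3 of 6 cultures. Both lay below Nes and above Ngfr in level. Ngfr averaged 10.7 ± 2.78 TPM, Dcx 8.02 ± 3.97 TPM and Sox10 5.03 ± 1.79 TPM, the last above 27.2% of tested genes. Ngfr exceeded Dcx in 5 of 6 cultures, and Dcx exceeded Sox10 in 5 of 6. In bulk RNA a low level of a neural transcript in few cells and a trace in many cells cannot be told apart, nor can a change in cell number and one in RNA per cell.

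**Figure D1:**
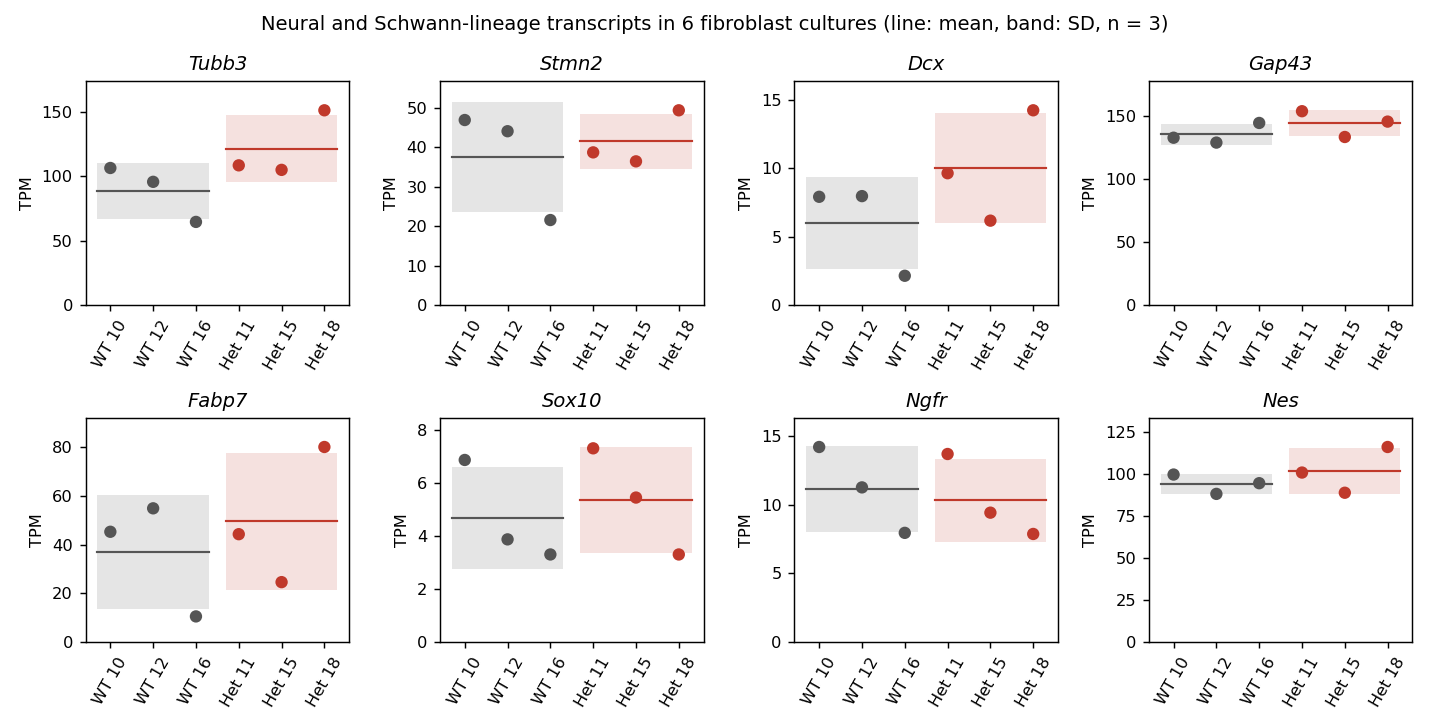
Level of each of the 8 genes (TPM, linear axis from 0) in the 6 cultures, wild-type in grey and heterozygous in red; lines are group means and bands the SD (n = 3 each). Wild-type culture 16 is lowest and heterozygous culture 18 highest for Tubb3, Stmn2, Dcx and Fabp7, while Gap43 and Nes stay within 1.19-fold and 1.32-fold from lowest to highest.

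Between the genotypes, none of the 8 genes passed edgeR's quasi-likelihood test at a Benjamini-Hochberg adjusted p under 0.05 over all tested genes. The background for that call was 0.00683% of genes, a single gene, Lztr1. DESeq2 called none of them either, giving no adjusted p for Sox10 and Fabp7. At an unadjusted p under 0.05, which 12.2% of all tested genes reached (5.56% with the heterozygous cultures higher), 1 of the 8 was counted, Tubb3, which was higher. The estimate was higher in heterozygous cultures for 7 of the 8, all but Ngfr, against 49.6% of all tested genes.

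Tubb3 (ENSMUSG00000062380.4, a protein-coding gene at chr8:123411424-123422015 on the plus strand, mm10), the tubulin used most often to stain young neurons, stood at 107, 94.1 and 68.8 CPM (read counts scaled for library size and composition) in wild-type cultures 10, 12 and 16. It stood at 112, 110 and 154 CPM in heterozygous cultures 11, 15 and 18. All heterozygous cultures lay above all wild-type cultures in CPM, though culture 10 was only just below 15, and in TPM they overlapped, with 107 in culture 10 against 105 in culture 15. Groups did not overlap, with the heterozygous cultures higher, in 7.75% of all tested genes. The log2 difference was 0.47 (SE 0.18, 95% interval 0.06 to 0.88), at an adjusted p of 0.368 by edgeR. In cultures 10 to 12 alone it was 0.15, and in 15 to 18 alone 0.92.

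Stmn2 (ENSMUSG00000027500.10, chr3:8509360-8561606, plus strand), which encodes a neuronal protein that frees tubulin from growing microtubules, measured 46.9, 44.0 and 21.6 TPM in wild-type cultures 10, 12 and 16. In heterozygous cultures 11, 15 and 18 it measured 38.7, 36.4 and 49.3 TPM. Culture 16 alone was low, and the other 5 cultures of both genotypes overlapped. Between genotypes it differed by 0.24 on the log2 scale (SE 0.22, 95% interval -0.26 to 0.75, adjusted p of 0.672 by edgeR). Cultures 10 to 12 alone gave -0.06 and cultures 15 to 18 alone 0.90.

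Dcx (ENSMUSG00000031285.14, chrX:143855842-143933311, minus strand), the microtubule binder of migrating neurons, varied 6.59-fold in TPM over the cultures. In wild-type cultures 10, 12 and 16 its level was 7.92, 7.97 and 2.16 TPM, compared with 9.64, 6.18 and 14.2 TPM in heterozygous cultures 11, 15 and 18. Culture 15 fell among the wild-type values, so the groups overlapped. Its log2 difference was the largest of the 8 at 0.73, but with an SE of 0.43 and a 95% interval from -0.26 to 1.72 (adjusted p of 0.514 by edgeR). Cultures 10 to 12 alone gave 0.35 and cultures 15 to 18 alone 1.94. Dcx is on the X chromosome, and its lowest value was in a female culture and its highest in a male one. With Y-linked expression as a term in edgeR, its log2 difference was 0.67.

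Gap43 (ENSMUSG00000047261.9, chr16:42248442-42340651, minus strand), a membrane protein of growth cones that is also made by Schwann cell precursors, hardly varied. It measured 133, 129 and 145 TPM in wild-type cultures 10, 12 and 16, and 154, 134 and 146 TPM in heterozygous cultures 11, 15 and 18. The groups overlapped, and the log2 difference was 0.11 (SE 0.08, 95% interval -0.08 to 0.30, adjusted p of 0.607 by edgeR). It was 0.28 within cultures 10 to 12 and -0.09 within 15 to 18. Gap43 lies on chromosome 16, as Lztr1 does (chr16:17508688-17526333).

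Among the glial genes, Fabp7 (ENSMUSG00000019874.11, chr10:57784881-57788450, plus strand) had the widest spread of the 8, 7.60-fold in TPM. In wild-type cultures 10, 12 and 16 its level was 45.3, 55.0 and 10.6 TPM, compared with 44.4, 24.6 and 80.2 TPM in heterozygous cultures 11, 15 and 18. Culture 16 was below every heterozygous culture and 18 above every wild-type one, but heterozygous cultures 11 and 15 were both below wild-type cultures 10 and 12, so the groups overlapped in part. On the log2 scale heterozygous cultures differed by 0.44 (SE 0.54, 95% interval -0.80 to 1.68, adjusted p of 0.768 by edgeR). Its sign rested on culture 18, since without it the difference was -0.03. Within cultures 10 to 12 it was -0.12 and within 15 to 18 it was 2.04.

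Sox10 (ENSMUSG00000033006.9, chr15:79154908-79165240, minus strand) rested on few counts, 56 to 246 per library. They were below those of Fabp7 in every culture but 16, where Sox10 had 58 and Fabp7 44. Sox10 measured 6.88, 3.88 and 3.31 TPM in wild-type cultures 10, 12 and 16, and 7.32, 5.46 and 3.31 TPM in heterozygous cultures 11, 15 and 18. The highest culture of each genotype came from the run 10 to 12, and the lowest cultures, 16 and 18, from the run 15 to 18. The log2 difference between genotypes was 0.23 (SE 0.34, 95% interval -0.55 to 1.01, adjusted p of 0.809 by edgeR), 0.55 within cultures 10 to 12 and 0.32 within 15 to 18. Without heterozygous culture 11 it was -0.07.

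Ngfr (ENSMUSG00000000120.6, chr11:95568818-95587735, minus strand) followed Sox10 over the cultures. In wild-type cultures 10, 12 and 16 its level was 14.2, 11.3 and 7.95 TPM, compared with 13.7, 9.42 and 7.87 TPM in heterozygous cultures 11, 15 and 18. Each genotype therefore held a high, a middle and a low culture at nearly the same levels. Between genotypes the log2 difference was -0.07 (SE 0.24, 95% interval -0.62 to 0.48, adjusted p of 0.926 by edgeR). Its sign changed with the run as a term (0.12), without wild-type culture 10 (0.15) and without heterozygous culture 18 (0.09). Within cultures 10 to 12 the difference was 0.16 and within 15 to 18 it was 0.07, each opposite in sign to the estimate over all 6 cultures.

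Nes (ENSMUSG00000004891.16, chr3:87971078-87980451, plus strand), the progenitor filament gene, measured 99.6, 88.1 and 94.5 TPM in wild-type cultures 10, 12 and 16. It measured 101, 88.8 and 116 TPM in heterozygous cultures 11, 15 and 18. Only culture 18 stood above the wild-type range by more than a few TPM. The log2 difference was 0.13 (SE 0.10, 95% interval -0.10 to 0.35, adjusted p of 0.621 by edgeR), with 0.15 within cultures 10 to 12 and 0.06 within 15 to 18.

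**Figure D2:**
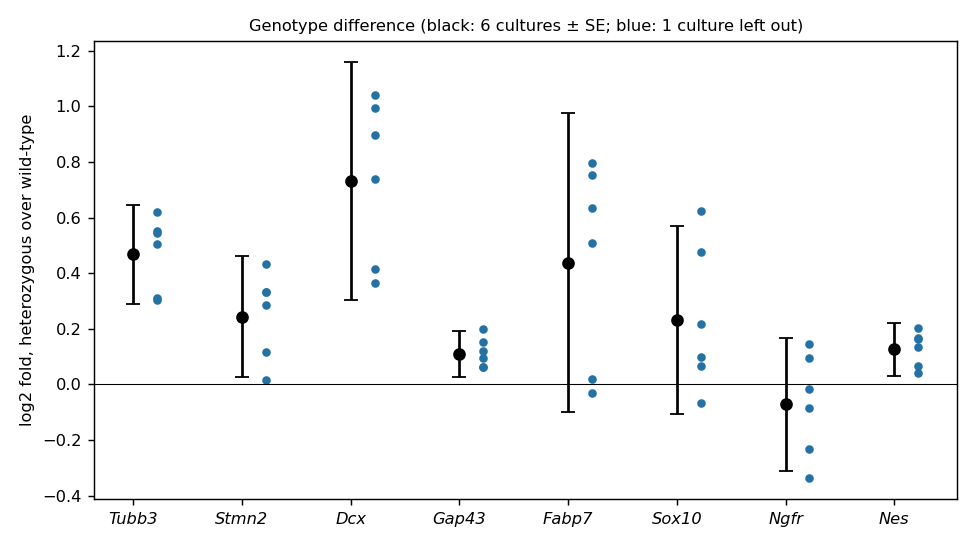
Log2 fold, heterozygous over wild-type, for each gene: black points are the estimate over 6 cultures with its SE, and blue points the estimates with 1 culture left out. Tubb3 stays between 0.30 and 0.62, while Fabp7, Sox10 and Ngfr have estimates on both sides of 0.

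For 5 of the 8 genes the difference within the run 15 to 18 and that within 10 to 12 differed at an unadjusted p under 0.05 in an edgeR fit with an interaction of genotype and run, as did 13.4% of all tested genes. These were Gap43, Stmn2, Tubb3, Fabp7 and Dcx, in order of p. After Benjamini-Hochberg adjustment in edgeR over all genes none passed, with an adjusted p of 0.193 for Gap43, 0.203 for Stmn2, 0.285 for Tubb3, 0.331 for Fabp7 and 0.343 for Dcx, where 0.328% of tested genes did. The run 15 to 18 has a single wild-type culture, 16, and the run 10 to 12 a single heterozygous culture, 11. A difference between the runs and a peculiarity of either of these cultures therefore cannot be told apart. With an interaction of genotype and sex in place of the run, the adjusted p was at least 0.957 for each of the 8.

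The 8 genes did not move as one set, and the division was not the one between neuronal and glial genes. Tubb3, Stmn2, Dcx and Fabp7 each had their lowest value in wild-type culture 16 and their highest in heterozygous culture 18, in CPM and in TPM, an arrangement found in 5.22% of all tested genes. Fabp7, placed with the glial genes, thus shared this arrangement with the neuronal genes Tubb3, Stmn2 and Dcx, but not with Gap43. Sox10 and Ngfr had their 2 highest cultures in 10 and 11 and, in CPM, their lowest in 18, so in culture 18 they were low where the other 4 were high. Gap43 and Nes shared neither order.

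**Figure D3:**
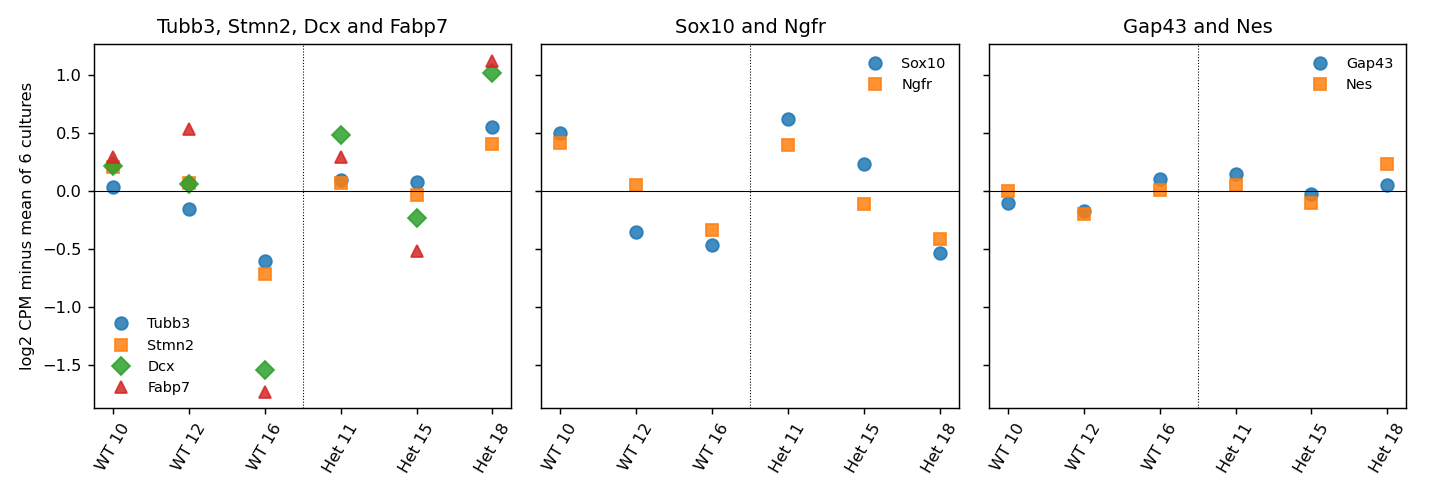
Deviation of log2 CPM from the mean of the 6 cultures, by culture, wild-type left of the dotted line and heterozygous right of it. In the left panel culture 16 is lowest and culture 18 highest for all 4 genes, in the middle panel cultures 10 and 11 are high and 16 and 18 low, and in the right panel the points stay near 0.

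Over the 6 cultures and 28 pairs of these genes, the strongest relations in log2 CPM were between Stmn2 and Dcx (Pearson's r = 0.97, exact permutation p = 0.00694, Spearman's rho = 0.94, exact p = 0.0167), Dcx and Fabp7 (r = 0.96, exact p = 0.00833, rho = 0.77, exact p = 0.103) and Stmn2 and Fabp7 (r = 0.96, exact p = 0.00694, rho = 0.83, exact p = 0.0583). Sox10 and Ngfr had r = 0.87 (exact p = 0.0403) and rho = 0.89 (exact p = 0.0333), whereas Sox10 and Fabp7 had r = 0.09 (exact p = 0.903) and rho = -0.26 (exact p = 0.658). Fabp7 and the neuronal gene Gap43 had r = -0.31 (exact p = 0.5625) and rho = -0.43 (exact p = 0.419). All exact tests were two-sided. After Benjamini-Hochberg adjustment over the 28 pairs the lowest p was 0.0778 for r and 0.408 for rho, so none passed. Without cultures 16 and 18, the 2 farthest from the median, r was 0.58 for Stmn2 and Dcx, 0.67 for Dcx and Fabp7 and 0.66 for Stmn2 and Fabp7. For Sox10 and Ngfr it was 0.48 without cultures 10 and 11. Tubb3, which shared the order of these genes, had r = 0.93 with Dcx, 0.91 with Stmn2 and 0.84 with Fabp7 (exact permutation p = 0.0208, 0.0292 and 0.0556; rho = 0.83, 0.71 and 0.49, exact p = 0.0583, 0.136 and 0.356). Without cultures 16 and 18 these were 0.19, -0.09 and -0.58, so for Tubb3 the relation rested on those 2 cultures.

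As summed levels, the neuronal genes Tubb3, Stmn2, Gap43 and Dcx together held 295, 277 and 233 TPM in wild-type cultures 10, 12 and 16 and 311, 281 and 361 TPM in heterozygous cultures 11, 15 and 18. The glial genes Sox10, Ngfr and Fabp7 held 66.4, 70.1 and 21.8 TPM and 65.4, 39.5 and 91.4 TPM in the same order. The neuronal genes outweighed the glial ones in every culture, by 3.95-fold to 10.7-fold, with the highest ratio in culture 16, where Fabp7 was lowest. The sums are ruled by few genes. Gap43 and Tubb3 made up 81.2% to 89.8% of the neuronal sum, and Fabp7 made up 48.4% to 87.8% of the glial one.

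The group means of the neuronal sum were 268 ± 31.5 TPM in wild-type and 318 ± 40.1 TPM in heterozygous cultures, and those of the glial sum 52.8 ± 26.9 and 65.4 ± 25.9 TPM (SD, n = 3 each). Both pairs overlapped, and no test was made of these sums. The log2 difference was 0.24 for the neuronal sum, 0.40 for the glial sum and -0.16 for their ratio, whose sign was not stable. It was positive with CPM in place of TPM (0.14), with the mean of log2 TPM (0.19), with Nes added to the glial sum (0.07), without wild-type culture 16 (0.29) and without heterozygous culture 18 (0.03). It was also positive in cultures 10 to 12 alone (0.19) and in cultures 10, 12, 15 and 18 alone (0.34). The glial difference was -0.14 without wild-type culture 16 and 0.12 without heterozygous culture 18. Sox10 and Ngfr alone summed to 15.8 ± 4.95 TPM in wild-type and 15.7 ± 4.96 TPM in heterozygous cultures, a log2 difference of -0.01.

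Other neuronal genes showed which cultures carried the transcripts. Of 28 listed genes 25 passed the filter on low counts and 0 of them passed the test between genotypes. An unadjusted p under 0.05 in edgeR was found for 1, against 12.2% of all tested genes. The estimate was higher in heterozygous cultures for 23 of 25, against 49.6% of all tested genes. The median log2 difference was 0.29, against -0.00 over all tested genes. Without wild-type culture 16 the median was 0.14 with 19 of 25 higher, and without heterozygous culture 18 it was 0.21 with 21 higher. Leaving out wild-type culture 10, wild-type culture 12 or heterozygous culture 15 gave medians of 0.57, 0.46 and 0.57. The lowest culture was 16 in 18 of the 25 genes, and in 16 of them 18 was also the highest, against 19.0% and 5.22% of all tested genes. The order was noticed in the 8 genes first and then counted here.

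Among the genes of this list with the smallest p were Elavl4, an RNA-binding protein of neurons (log2 difference 0.68, SE 0.27, adjusted p of 0.384 by edgeR), Uchl1, a neuronal ubiquitin hydrolase (0.20, SE 0.09), and Chga, a protein of secretory granules (0.58, SE 0.29). Some genes chosen after their values were seen show the pattern over the cultures. Mapt, the axonal microtubule protein tau, measured 12.2, 10.9 and 2.77 TPM in the wild-type cultures in that order and 12.7, 7.87 and 14.01 TPM in the heterozygous ones. Snap25, a protein of synaptic vesicle fusion, was at 6.82, 5.89 and 2.02 TPM and at 7.85, 4.55 and 10.1 TPM in the same order. Culture 16 was again far below the rest. Rbfox3, which encodes the nuclear antigen NeuN of mature neurons, was present at 0.54 to 2.23 TPM.

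Of 20 listed genes of Schwann cells and peripheral glia, 16 passed the filter and 0 passed the test. An unadjusted p under 0.05 in edgeR was reached by 1, against 12.2% of all tested genes. The estimate was higher in heterozygous cultures for 13 of 16, against 49.6% of all tested genes. The median log2 difference was 0.16, against -0.00 over all tested genes. The lowest culture was 16 in 5 of the 16 genes, and 16 and 18 were the extremes in 2, against 19.0% and 5.22% of all tested genes. Mbp, a myelin protein gene, had the smallest p (log2 difference 0.66, SE 0.26, adjusted p of 0.386 by edgeR). Erbb3, the neuregulin receptor of Schwann cells, was at 3.08 to 5.07 TPM. Of 12 listed genes of central and radial glia, 8 passed the filter and 0 passed the test. The estimate was higher in heterozygous cultures for 5 of the 8, with a median log2 difference of 0.12. The lowest culture was 16 in 5 of the 8, and 16 and 18 were the extremes in 2, against the same 19.0% and 5.22%.

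**Figure D4:**
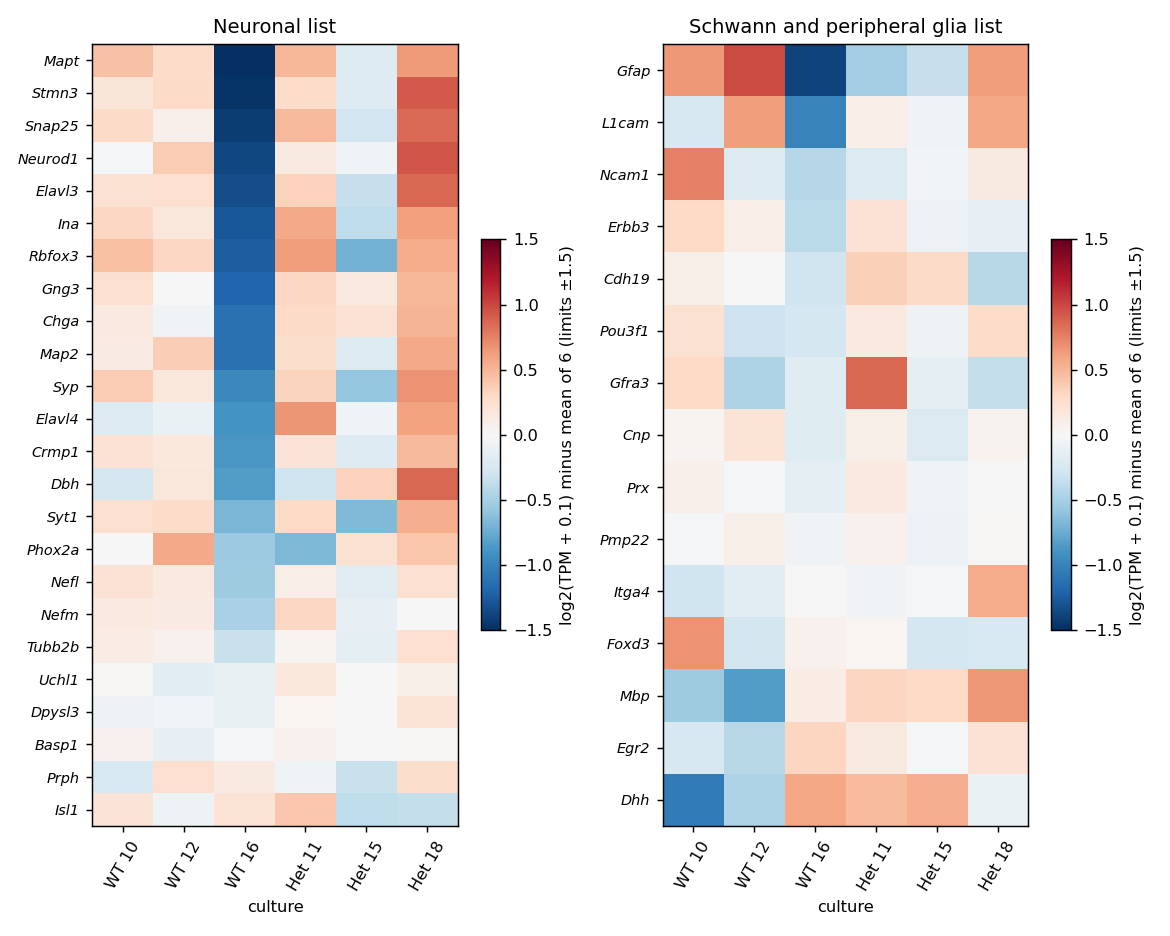
Deviation of log2(TPM + 0.1) from the mean of the 6 cultures (colour, red higher and blue lower, limits ±1.5) for 24 of the 25 neuronal and 15 of the 16 Schwann and peripheral glia genes that passed the filter, ordered by the value in wild-type culture 16. Culture 16 is blue and culture 18 red down most of the neuronal panel, and the glial panel has no such column.

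Neural crest regulators leaned the other way. Of 16 genes, all of which passed the filter, 12 had a lower estimate in heterozygous cultures, against 7387 of all 14652 tested genes. The median log2 difference of the 16 was -0.24. None passed the test, and 6 had an unadjusted p under 0.05, all lower, against 6.65% of all tested genes. In CPM the groups did not overlap in 5 of the 16, all lower, against 9.97% of all tested genes. Msx1, a homeobox gene of crest and limb mesenchyme, measured 67.8, 73.3 and 45.6 TPM in wild-type cultures 10, 12 and 16 and 46.3, 37.6 and 34.1 TPM in heterozygous cultures 11, 15 and 18. The log2 difference was -0.63 (SE 0.16, adjusted p of 0.313 by edgeR). In TPM culture 11 lay just above culture 16, and in CPM the groups did not overlap. Tfap2a differed by -0.43 (SE 0.16), Pax3 by -0.71 (SE 0.27) and Twist1 by -0.25 (SE 0.10). Twist1 and Snai2 are also made by mesenchyme, and with them at 66.1 to 102 TPM and 39.8 to 44.4 TPM the list does not mark crest cells alone. Pax3 and Pax7 are also made by muscle precursors. Estimates were lower in heterozygous cultures for 8 of 9 tested skeletal muscle genes (median log2 difference -0.25) and 9 of 11 fibroblast genes (median -0.15) as well, and their part in the crest values was not tested. The median was -0.12 without wild-type culture 10 and -0.38 without heterozygous culture 11.

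Signals that act on these lineages were present. Bdnf, which encodes a ligand of NGFR, was at 7.61 to 18.4 TPM. Of 11 tested genes of the neurotrophin list 0 passed, and Bdnf had the smallest p (log2 difference 0.54, SE 0.26, adjusted p of 0.445 by edgeR). Nrg1, the growth factor of Schwann cells, differed by 0.29 (SE 0.12). Its receptor gene Erbb3 differed by 0.01 (SE 0.17) and the co-receptor gene Erbb2 by -0.18 (SE 0.07). In that list 0 of 10 genes passed the test. Rest, a repressor of neuronal genes outside neurons, was at 16.2 to 19.5 TPM.

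Family members placed the 8 genes among their relatives. Tubb3 was a small part of the beta-tubulins, next to Tubb5 at 1268 to 1422 TPM and Tubb2b at 283 to 427 TPM. The estimate was higher in heterozygous cultures for all 7 other beta-tubulins listed, against 49.6% of all tested genes. In CPM the groups did not overlap in 2 of the 7, Tubb1 and Tubb6, against 7.75% of all tested genes in that direction. Tubb1, with as few as 6 counts in a library, was higher by 1.63 (SE 0.38, adjusted p of 0.313 by edgeR). Tubb6, which is common in fibroblasts, was higher by 0.27 (SE 0.07, adjusted p of 0.313 by edgeR). Stmn3 and Stmn4, the other neuronal stathmins, had culture 16 lowest and 18 highest as Stmn2 did, at 8.01 and 42.3 TPM for Stmn3 and 25.5 and 66.7 TPM for Stmn4. Stmn1, the stathmin of dividing cells, was far higher at 489 to 649 TPM. Fabp5 was above Fabp7 at 337 to 401 TPM, and vimentin above nestin at 3148 to 4050 TPM. Of the other SoxE factors, Sox8 was below Sox10 in level at 1.41 to 2.26 TPM in every culture. Sox9 was above Sox10 at 5.25 to 10.1 TPM, and differed by -0.38 (SE 0.16, adjusted p of 0.404 by edgeR). Sox2, a factor of neural progenitors, was at 1.62 TPM in culture 16 and 6.09 TPM in culture 18.

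The genes most like each of the 8 over the 6 libraries, by Pearson's r of log2 CPM over all tested genes, were as follows. For Dcx they were Nnat (r = 0.999), Map2 (0.998) and Celf3 (0.997), and for Stmn2 Ptpn13 (0.995), Gprin1 (0.995) and Gpm6a (0.994). For Tubb3 they were Atp2b2 (0.998), Tnr (0.995) and Zfp677 (0.990), and for Fabp7 Gdap1 (0.998), Diras2 (0.997) and Dlx6os1 (0.995). Sox10 was most like Ppp1r7 (0.995), Uaca (0.994) and Gpr63 (0.987), and Ngfr like Rab11fip5 (0.992), Taf5 (0.985) and Prdm11 (0.976). Gap43 was most like Suv39h2 (0.994), Ell (0.991) and Fam177a (0.988), and Nes like Sept2 (0.987), Hrk (0.983) and Srp14 (0.974). The number of genes with r above 0.95 was 184 for Fabp7, 175 for Dcx and 160 for Stmn2, against 64 for Tubb3, 46 for Gap43, 23 for Ngfr, 17 for Sox10 and 12 for Nes. With 6 libraries and 14652 genes high values of r arise readily, and all share the same libraries.

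Markers of other cell types also differed between the cultures that set the neural values. The summed level of 10 skeletal muscle genes was 804, 747 and 525 TPM in wild-type cultures 10, 12 and 16 and 683, 489 and 648 TPM in heterozygous cultures 11, 15 and 18, so cultures 15 and 16 were low as for Fabp7. The 7 erythroid genes summed to 157, 124 and 435 TPM and to 246, 433 and 503 TPM, high in cultures 15, 16 and 18. The 6 epithelial genes summed to 92.5 to 235 TPM, the 6 macrophage genes to 133 to 260 TPM, the 6 pericyte genes to 186 to 255 TPM and the 7 endothelial genes to 11.1 to 19.5 TPM. The 11 fibroblast genes summed to 9326, 9412 and 7138 TPM and to 6754, 7467 and 7332 TPM. Of 7 melanocyte genes 3 passed the filter, Mitf, Pmel and Kit, and the 7 summed to 4.55 to 8.36 TPM. Whether cells of this SOX10-positive branch were present was not tested. The part of these cell types in the neural values was not tested.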

How the data were processed

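Per the labels' protocols, libraries were made from total RNA with an Illumina TruSeq kit. The deposited tables, 1 per library, hold RSEM expected counts, TPM and FPKM per gene, per the file headers. Per the submitters' processing notes, RSEM 1.3.1, DESeq2 and mm10 were used. The sources used here do not name the aligner, annotation release or strand setting. The authors' expected counts are estimates that divide ambiguous reads, and were rounded for the tests. The deposited TPM values gave levels, and the deposited FPKM values were not used. Symbols and coordinates came from GENCODE M21 (51633 of 51826 genes).

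Genes passing filterByExpr (14652) were compared with edgeR 4.0.16 (TMM factors, quasi-likelihood test, no covariates, R 4.3.3), with Benjamini-Hochberg adjustment over all of them and a threshold of 0.05. CPM values use the TMM-scaled library sizes. The median SE was 0.11 on the log2 scale. Intervals are at 95%. DESeq2 1.42.0 and limma 3.58.1 on log2(TPM + 0.5) were alternatives. The log2 of summed TPM used a pseudocount of 0.1. The edgeR step was tested on simulated counts. The 8 genes and all lists were chosen with earlier results of these data known. Named beside the 8 were up to 4 genes per list, by smallest p at 1 TPM or more, and the 3 genes most like each. Genes outside this rule (Mapt, Snap25, Rbfox3, Erbb3, Snai2, Rest, Col1a1 and Pdgfrb) were chosen after their values were seen. Some listed genes are counted but not reported here by name. Values from overlapping genes cannot be told apart if strand was not used, but no other gene's exon overlapped those of the 8. Ngfrap1, listed beside its newer name Bex3, was not matched.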

Additional observations from a re-analysis of the deposited data

How the results depend on the processing

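For the 8 genes, 121 of 128 values under 16 alternatives kept the direction reported, and 0 passed an adjusted p of 0.05 in edgeR, DESeq2 or limma (lowest 0.0910, with 2 not given by DESeq2), so the count of called genes among them stayed at 0. That lowest adjusted p came from edgeR for Ngfr with cultures 10, 12, 15 and 18 alone, where its log2 difference was -0.50. The reversals were Sox10 with cultures 10, 12, 15 and 18 alone (-0.24), and Ngfr with the run (0.12) or Y-linked expression (0.0143) as a term. Sox10 was -0.0657 without heterozygous culture 11, Fabp7 -0.0302 without 18, and Ngfr 0.15 without wild-type 10 and 0.09 without 18. With 1 culture left out, Sox10 ranged from -0.07 to 0.62, Ngfr from -0.34 to 0.15 and Fabp7 from -0.03 to 0.80. Over all tested genes the single call became 112 in DESeq2, 32 without a filter on low counts, 0 in limma on log2(TPM + 0.5) or log2(TPM + 0.1), 0 with an effective length offset and 1450 with cultures 10, 12, 15 and 18 alone, and 0 to 896 with 1 culture left out, the highest without wild-type culture 16. In the run 15 to 18 alone, the log2 difference was 0.45 for the neuronal sum, 1.46 for the glial sum and -1.01 for their ratio. With 1 culture left out these ranged from 0.15 to 0.33, from -0.14 to 0.73 and from -0.43 to 0.29. The cause was not tested. The alternatives for list counts were chosen after seeing the data. No paired analysis was possible because the genotypes share no culture number. Depth limits Sox10 and Fabp7 most, with as few as 56 and 44 counts in a library.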
